A study of Mus musculus with 6 samples.

Results

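Transcripts of the Slc25 family, the carriers that move metabolites across the inner mitochondrial membrane, were followed in whole mouse kidneys at embryonic day 16. A gene was taken as a member where its symbol was Slc25a followed by digits. GENCODE M21 lists 47 such symbols, and 42 of them matched rows among the 13965 analysed. The other 5 (Slc25a2, Slc25a18, Slc25a41, Slc25a43 and Slc25a54) were not analysed here. The rule uses symbols alone and no measured value. RNA was sequenced in 6 libraries, and every one of the 3 litters contributed a control and a mutant kidney library. Control kidneys are labelled WT and miR-17~92 flx/+, so that a floxed copy of the microRNA cluster was present in them too. Mutant kidneys are labelled Six2-TGC and miR-17~92 flx/flx. The Six2-TGC transgene makes Cre recombinase in nephron progenitors, so the cluster is lost in these cells and in the nephron cells that descend from them, and not in stroma, vessels or the ureteric bud. The label of the controls names no Six2-TGC, and a part played by the transgene itself cannot be told apart from that of the deletion. Nothing in the labels says how many kidneys went into a library.

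Carriers of this family share a fold built from 3 repeats of a pair of membrane helices, and each binds its substrate on one face of the membrane and releases it on the other. They supply the respiratory chain with phosphate and adenosine diphosphate, export adenosine triphosphate (ATP), and exchange citrate, malate, amino acids, cofactors and iron between mitochondria and cytosol. Kidney tubules depend on mitochondrial respiration as they mature, whereas nephron progenitors are known for relying more on glycolysis.

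The sequences of the deleted microRNAs are given first, because they set which carriers could pair with the cluster. They are the mature arms in RefSeq on chromosome 14 of GRCm38.p6, plus strand, 5′ to 3′, with the seed (bases 2 to 8) in capitals. By seed they form 4 families, miR-17-5p with miR-20a-5p, miR-18a-5p, miR-19a-3p with miR-19b-3p, and miR-92a-3p.
miR-17-5p: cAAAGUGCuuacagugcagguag
miR-20a-5p: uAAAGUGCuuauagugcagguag
miR-18a-5p: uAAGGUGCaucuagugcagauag
miR-19a-3p: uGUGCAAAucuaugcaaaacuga
miR-19b-3p: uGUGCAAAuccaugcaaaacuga
miR-92a-3p: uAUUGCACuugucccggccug

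The carrier transcripts of these kidneys were dominated by those that serve ATP synthesis. CPM are reads scaled to the total of each library. On the scale of CPM per kilobase of transcript, which allows levels of different genes to be compared, Slc25a3, the phosphate carrier, stood highest with a mean of 417 over the 6 libraries and a range from 387 to 445. Slc25a5, the adenine nucleotide translocase 2, followed at 322 (291 to 343). Slc25a39, the glutathione carrier, at 156 (128 to 181) and Slc25a4, the adenine nucleotide translocase 1, at 150 (137 to 162) overlapped in range, so their order is not set. Below them came Slc25a11, the oxoglutarate carrier, at 93.4, then Slc25a17, a carrier of peroxisomes, at 55.9. Slc25a1, the citrate carrier, at 46.3 (36.5 to 55.6) and Slc25a10, the dicarboxylate carrier, at 41.9 (34.5 to 49.7) again overlapped.

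At the low end, Slc25a31, the translocase best known from testis, and Slc25a34 stood at 0.393 and 0.318 CPM per kb. Both failed the filter of at least 1 CPM in at least 3 libraries, and the 40 other members were tested. Slc25a31 was listed at 1.05, 0.954 and 0.303 CPM in the control and 1.26, 0.929 and 0.514 CPM in the mutant libraries of litters 1, 2 and 3. Slc25a34 was listed at 0.525, 0.841 and 0.707 CPM and at 1.41, 1.04 and 0.578 CPM. Neither gene separated the groups. In the reads implied by the library totals, the lowest of these values was 15 for Slc25a31 and 23 for Slc25a34.

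**Figure D1:**
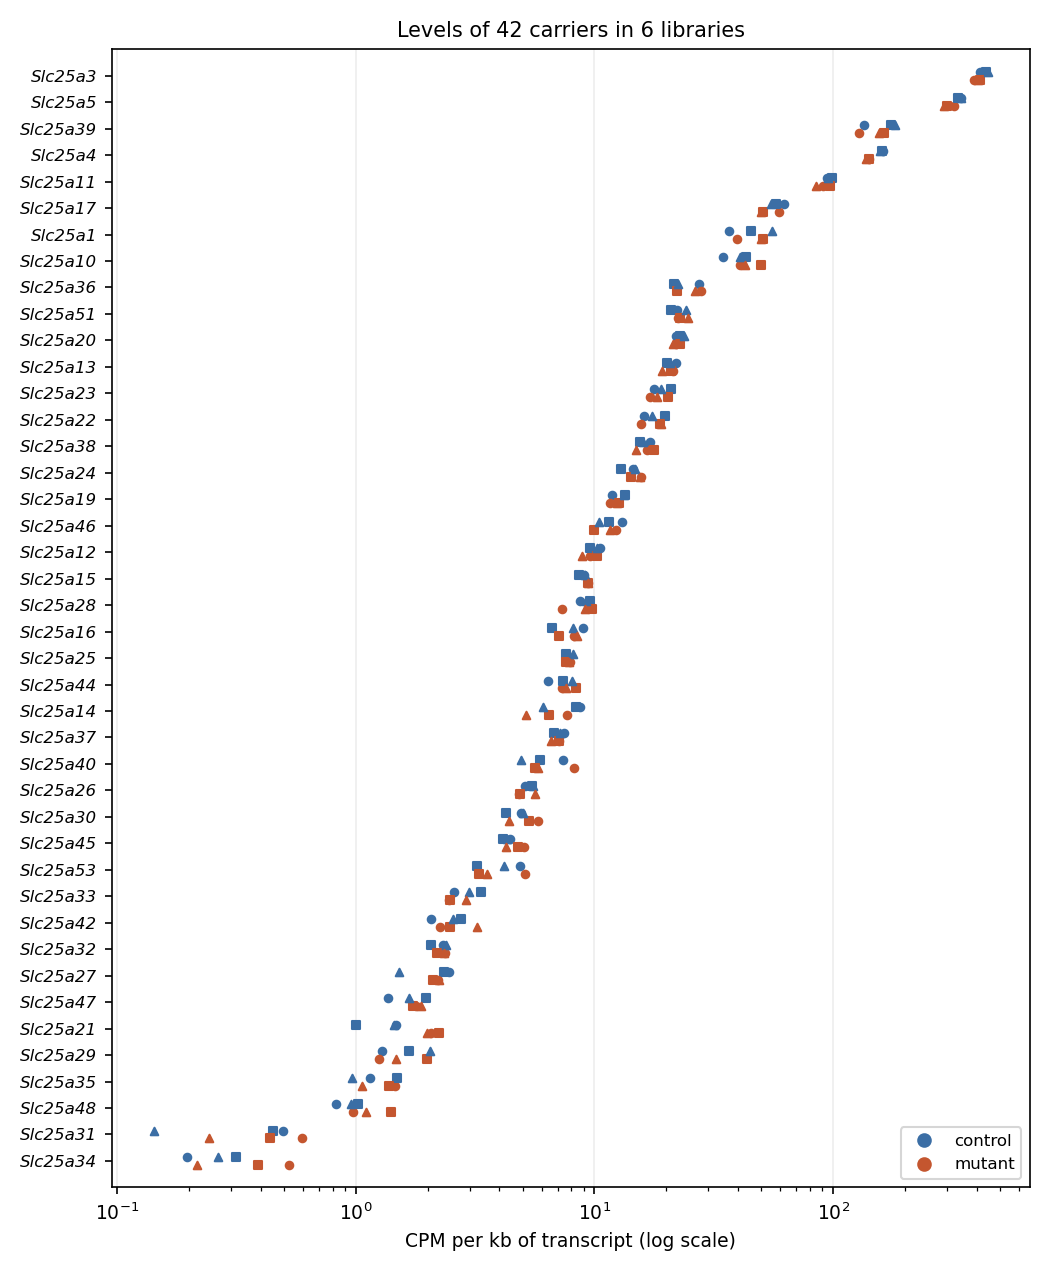
Level of each of the 42 carriers in CPM per kilobase of transcript (log axis), one point per library, with control libraries in blue above mutant libraries in red and a marker shape for each litter (circle 1, square 2, triangle 3). The phosphate carrier Slc25a3 (387 to 445) and the translocase Slc25a5 (291 to 343) stand above all other members, and Slc25a31 and Slc25a34 lie lowest.

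Most carriers did not differ measurably between mutant and control kidneys. Paired by litter, Slc25a4 and Slc25a5 fell and Slc25a21, a carrier of oxoadipate and related keto acids, rose. These are 3 of 40 tested members, or 7.5%, at an adjusted p below 0.05 by limma with litter as a block, where 11.4% of all tested rows were called (7.93% higher and 3.51% lower). The median log2 change of the members was 0.003, with 21 above 0 and 19 below, against 0.01 over all 13766 tested rows. Their median size of change, regardless of sign, was 0.08 against 0.11. With genotype alone in the model limma called none of the 40, against 0.559% of all rows. At an unadjusted p below 0.05 there were 3 members, or 7.5%, against 11.3% of all rows.

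Litter by litter, 10 members were lower in the mutant in 3 of 3 litters, as were 22.2% of all tested rows, and 7 were higher in 3 of 3, as were 28.3% of all rows. The control and mutant libraries did not overlap for 3 members that were lower in the mutant (Slc25a3, Slc25a4 and Slc25a5; 7.12% of all rows) and for 2 that were higher (Slc25a15 and Slc25a21; 10.2% of all rows). In either direction that is 5 of 40 members, where 17.3% of all rows did not overlap.

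**Figure D2:**
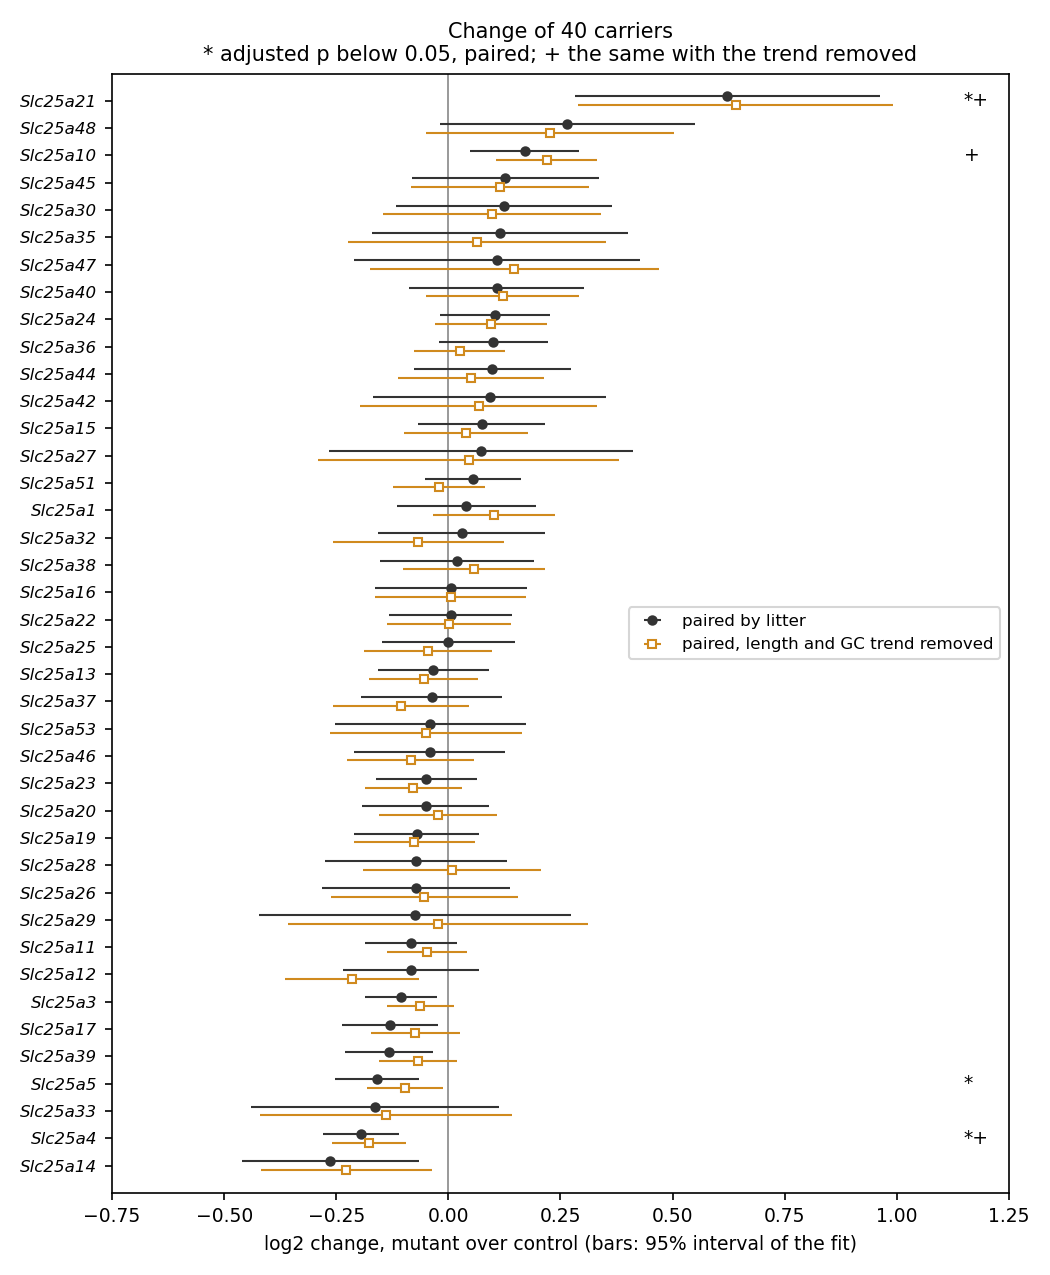
Log2 change of mutant over control for the 40 tested carriers, paired by litter (black circles) and paired after a per-library trend in transcript length and GC content was taken out (open orange squares); bars are 95% intervals of the fit. Slc25a4 (-0.19), Slc25a5 (-0.16) and Slc25a21 (0.62) pass an adjusted p below 0.05 when paired (asterisk), and Slc25a4, Slc25a21 and Slc25a10 pass with the trend removed (plus).

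The 3 tested carriers of ATP synthesis were lower in the mutant in 3 of 3 litters, at 0.874 to 0.930 of the control level, and 2 of them passed the test. Slc25a4, on chromosome 8, stood at 311, 309 and 303 CPM in the control libraries of litters 1, 2 and 3 and at 271, 271 and 264 CPM in the mutant libraries. All 3 control libraries lay above all 3 mutant libraries, and replicates of a group differed little. The mean went from 308 ± 4.42 to 269 ± 4.0 CPM (SD, n = 3 each), a log2 change of -0.19 (SE 0.04, 95% interval -0.28 to -0.11, adjusted p = 0.0164 by limma, paired). With genotype alone the adjusted p was 0.292, and without litter 1 it was 0.145 at the same size of change. It ranged from 0.00485 to 0.714 over all 19 alternatives.

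Slc25a5, on the X chromosome, is the translocase of dividing cells. It stood at 426, 412 and 424 CPM in the control libraries and at 399, 370 and 361 CPM in the mutant libraries. The groups did not overlap, but litters differed in the size of the step, with log2 differences of -0.09, -0.16 and -0.23. The change of -0.16 (SE 0.04) had an adjusted p of 0.0421 by limma, paired, and of 0.422 with genotype alone. It was 0.143 without litter 1 and 0.0602 without litter 2, and ran from 0.0332 to 0.890 over the 19 alternatives. Of the 1191 windows of 50 bases in its transcript, 46.6% occur unchanged in transcripts of 9 other annotated genes, so reads from Slc25a5 and from these copies may have been exchanged or lost in the counting. No window of Slc25a4 was shared.

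Slc25a3, on chromosome 10, stood at 663, 707 and 718 CPM in control and at 624, 662 and 655 CPM in mutant libraries. The groups did not overlap here either, though the lowest control library exceeded the highest mutant library by little, and the change of -0.11 (95% interval -0.19 to -0.03) missed the threshold, with an adjusted p of 0.0881 by limma, paired. Summed, Slc25a3, Slc25a4 and Slc25a5 made up 46.5%, 46.3% and 46.03% of all reads on the 42 members in control libraries and 43.8% to 44.6% in mutant libraries. The other members summed to 1611, 1658 and 1694 CPM in control and to 1605, 1671 and 1629 CPM in mutant libraries, which overlap. In level per kilobase, Slc25a5 exceeded Slc25a4 by 2.12, 2.07 and 2.17 times in control and by 2.29, 2.12 and 2.12 times in mutant libraries, so the balance of the 2 translocases did not separate the groups. In RNA from a whole organ, fewer cells that make a transcript and less of it in each cell cannot be told apart.

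**Figure D3:**
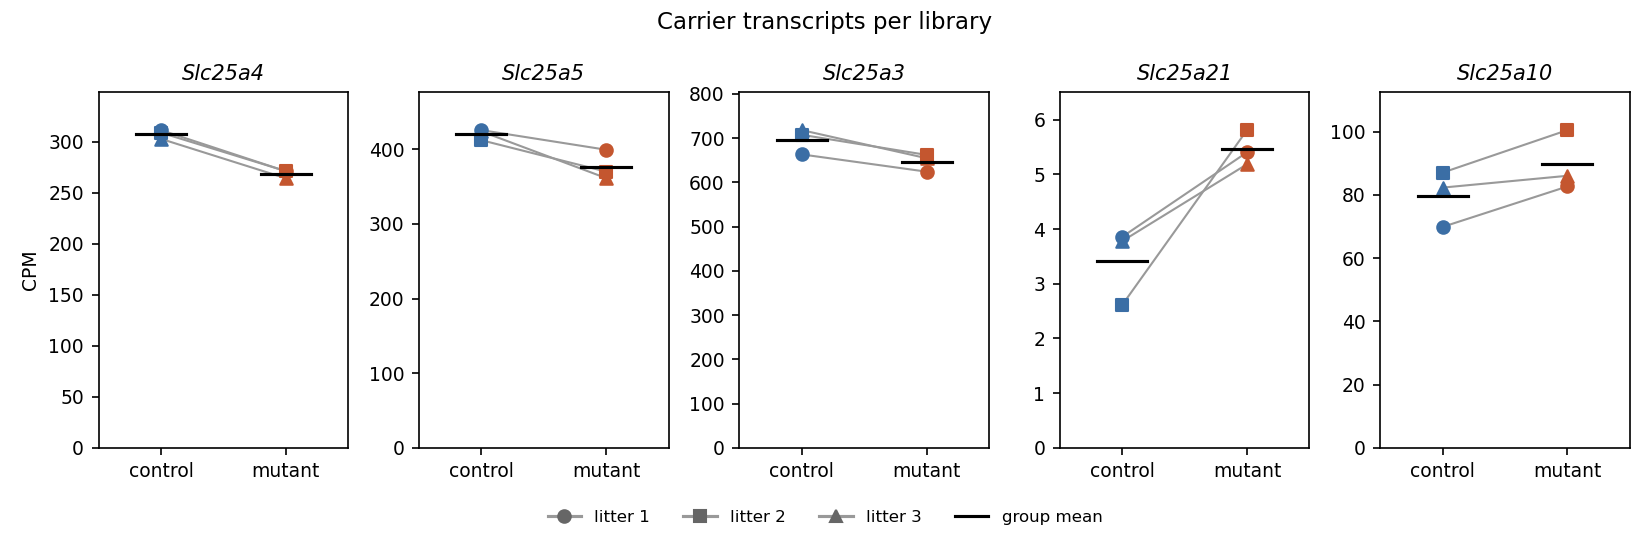
CPM in each library for Slc25a4, Slc25a5, Slc25a3, Slc25a21 and Slc25a10, with grey lines joining the control and mutant library of a litter, marker shapes for litters and black bars for group means; each axis starts at 0. The lines fall in 3 of 3 litters for Slc25a4, Slc25a5 and Slc25a3 and climb in 3 of 3 for Slc25a21 and Slc25a10, and the groups overlap for Slc25a10 alone.

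Among the carriers of carboxylates and keto acids, Slc25a21 showed the largest change of the family. This gene, on chromosome 12, stood at 3.86, 2.61 and 3.78 CPM in control and at 5.40, 5.81 and 5.19 CPM in mutant libraries. All mutant libraries lay above all control libraries. With library totals inferred from the CPM themselves, these values imply 169, 115 and 187 reads in control and 261, 319 and 242 reads in mutant libraries. The log2 change of 0.62 (SE 0.15, 95% interval 0.28 to 0.96) is 1.54-fold, and its adjusted p by limma was 0.0341 paired and 0.148 with genotype alone. Litter 2 gave a log2 difference of 1.02 and litters 1 and 3 gave 0.44 and 0.41. Without litter 2 the change was 0.42 with an adjusted p of 0.101, and without litter 1 the adjusted p was 0.0753. Over the 19 alternatives it ran from 0.00765 to 0.419. In GENCODE M21 an exon of Slc25a21 overlaps an exon of Pax9 on the opposite strand by up to 189 bases. The strand setting is not given in the sources used here, so reads there cannot be told apart. No analysed row had the symbol Pax9, so its own level cannot be given here.

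Slc25a10, which exchanges malate or succinate for phosphate and is abundant in kidney, stood at 69.9, 87.0 and 82.3 CPM in control and at 82.7, 100.5 and 86.0 CPM in mutant libraries. It was higher in 3 of 3 litters although the groups overlapped. The change of 0.17 (95% interval 0.05 to 0.29) had an adjusted p of 0.0743 by limma, paired, and passed with the length and GC trend removed (0.22, adjusted p = 0.0401). Without litter 3 it passed as well (0.22, adjusted p = 0.0121), and over the 19 alternatives the adjusted p ran from 0.0121 to 0.910. Its exons overlap those of the antisense gene Gm11788 by up to 228 bases. Of 12 markers of the proximal tubule 6 were called higher and 0 lower in the same kidneys, where 7.93% of all rows were called higher, and 3 of the 12 were called higher with the length and GC trend removed. The 12 summed to 875 to 1022 CPM in control and 1048 to 1260 CPM in mutant libraries. Lrp2, an endocytic receptor with a transcript of 15460 bases, made up much of that difference, with a control mean of 332 CPM and a mutant mean of 479 CPM, and it was not called with the trend removed (adjusted p = 0.0836 by limma). Their part in the Slc25a10 values was not tested.

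The other carriers of this class were not called. Slc25a11, the oxoglutarate carrier of the malate-aspartate shuttle, stood at 161, 169 and 163 CPM in control and at 154, 166 and 145 CPM in mutant libraries (log2 change -0.08, 95% interval -0.19 to 0.02, adjusted p = 0.258 by limma, paired). Slc25a1, which exports citrate for lipid synthesis, stood at 60.8, 75.5 and 92.7 CPM in control and at 65.8, 84.7 and 83.2 CPM in mutant libraries (0.04, -0.11 to 0.19, adjusted p = 0.732). Its libraries differed more within a group than between groups.

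None of the 6 tested carriers of amino acids was called by limma, paired, and their changes ran from -0.08 to 0.10. Both aspartate/glutamate carriers, the calcium-responsive partners of Slc25a11 in the malate-aspartate shuttle, were in this class. Slc25a12 (aralar) stood at 66.7, 61.1 and 65.3 CPM in control and at 60.7, 65.0 and 56.5 CPM in mutant libraries, with a change of -0.08 and an adjusted p of 0.434. Slc25a13 (citrin) stood at 68.4, 63.0 and 64.7 CPM and at 66.6, 65.2 and 59.9 CPM, with a change of -0.03 (95% interval -0.16 to 0.09) and an adjusted p of 0.722. For both genes litter 2 differed in sign from litters 1 and 3. Slc25a15, an ornithine carrier, varied least: its mutant libraries stood at 32.2, 32.2 and 32.2 CPM, all above the control libraries at 30.9, 29.5 and 31.3 CPM, and the change of 0.07 was not called (adjusted p = 0.463).

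Carriers of iron, of glycine for haem and of glutathione gave 0 calls among 5 members, with a median change of -0.04. The mitoferrins bring iron to the enzymes of haem and iron-sulphur cluster synthesis. Slc25a37 (mitoferrin 1, best known from red cell precursors) stood at 31.0, 28.2 and 29.9 CPM in control and at 29.7, 29.8 and 27.4 CPM in mutant libraries (log2 change -0.04, adjusted p = 0.764 by limma, paired). Slc25a28 (mitoferrin 2) stood at 13.3, 14.7 and 14.1 CPM and at 11.3, 14.9 and 14.1 CPM (-0.07, adjusted p = 0.635). Erythroid markers, 9 of 14 of which were measured, summed to 1005 to 1197 CPM in control and 910 to 1096 CPM in mutant libraries, and 0 of the 9 were called. Slc25a39 stood at 228, 295 and 305 CPM in control and at 216, 275 and 262 CPM in mutant libraries. It was lower in 3 of 3 litters while litters spread more than groups, and its change of -0.13 (95% interval -0.23 to -0.03) had an adjusted p of 0.0836.

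Carriers of nucleotides and cofactors, 9 members, gave 0 calls, and their changes ran from -0.16 for Slc25a33 to 0.10 for Slc25a36, both pyrimidine nucleotide carriers. Slc25a17 stood at 108, 99.3 and 94.9 CPM in control and at 102, 87.9 and 86.0 CPM in mutant libraries, with a change of -0.13 and an adjusted p of 0.108. Slc25a51, the NAD carrier, had a change of 0.05. Its row joined a further gene identifier, as did that of Slc25a34, so a value there cannot be assigned to the carrier alone. The 3 calcium-regulated ATP-Mg/phosphate carriers ran from -0.05 to 0.10 with 0 calls. Slc25a20, which brings fatty acids in as acylcarnitines, had a change of -0.05 and an adjusted p of 0.629.

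Relatives of the uncoupling proteins and carriers with no settled substrate gave 0 calls among 9 tested members. Slc25a14 stood at 15.8, 15.2 and 11.04 CPM in control and at 13.8, 11.6 and 9.30 CPM in mutant libraries. It was lower in 3 of 3 litters, with a change of -0.26 (95% interval -0.46 to -0.07) and an adjusted p of 0.0857 by limma, paired. Slc25a30, first described as the kidney mitochondrial carrier protein 1, stood at 17.7, 15.2 and 17.9 CPM and at 20.9, 19.1 and 15.8 CPM. Litters 1 and 2 were higher in the mutant and litter 3 lower, and the change of 0.12 had an adjusted p of 0.469. Slc25a48 stood at 2.79, 3.45 and 3.21 CPM in control and at 3.27, 4.75 and 3.73 CPM in mutant libraries (0.27, 95% interval -0.02 to 0.55, adjusted p = 0.197).

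Changes below 0 gathered among short carrier transcripts and changes above 0 among long ones, and the whole table had the same tilt. Of 15 members with a transcript under 2000 bases, 12 had a change below 0 and the median was -0.08. Of all 3205 tested rows of that length, 72.0% were below 0 and the median was -0.09. Of 25 members with at least 2000 bases, 18 were above 0 and the median was 0.07, against 0.04 for 10312 rows. Spearman's rho of length and change was 0.455 across the 40 members and 0.441 across 13517 rows with a length. These are correlations across genes measured in the same 6 libraries, and genes are not independent replicates.

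After the trend of every library in length and GC content was taken out, rho was 0.0621 for the members, and the paired test called 3 of 40 members, or 7.5%, and 5.61% of all rows. Of these members 2 were higher (2.84% of all rows) and 1 was lower (2.77% of all rows). Slc25a4, whose transcript has 1925 bases, went from -0.19 to -0.18 and was still called (adjusted p = 0.0290 by limma, paired). Slc25a21, with 2609 bases, went from 0.62 to 0.64 (adjusted p = 0.0498). Slc25a5, with 1240 bases the shortest of the 40, went from -0.16 to -0.10 and was no longer called (adjusted p = 0.158), and Slc25a3 went from -0.11 to -0.06 (0.289). Slc25a12, the longest with 6351 bases, went from -0.08 to -0.21 (0.0957). With the trend on length alone removed, Slc25a4 was the 1 member called (-0.16, adjusted p = 0.0450), where 4.78% of all rows were called, and Slc25a21 had an adjusted p of 0.0544.

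**Figure D4:**
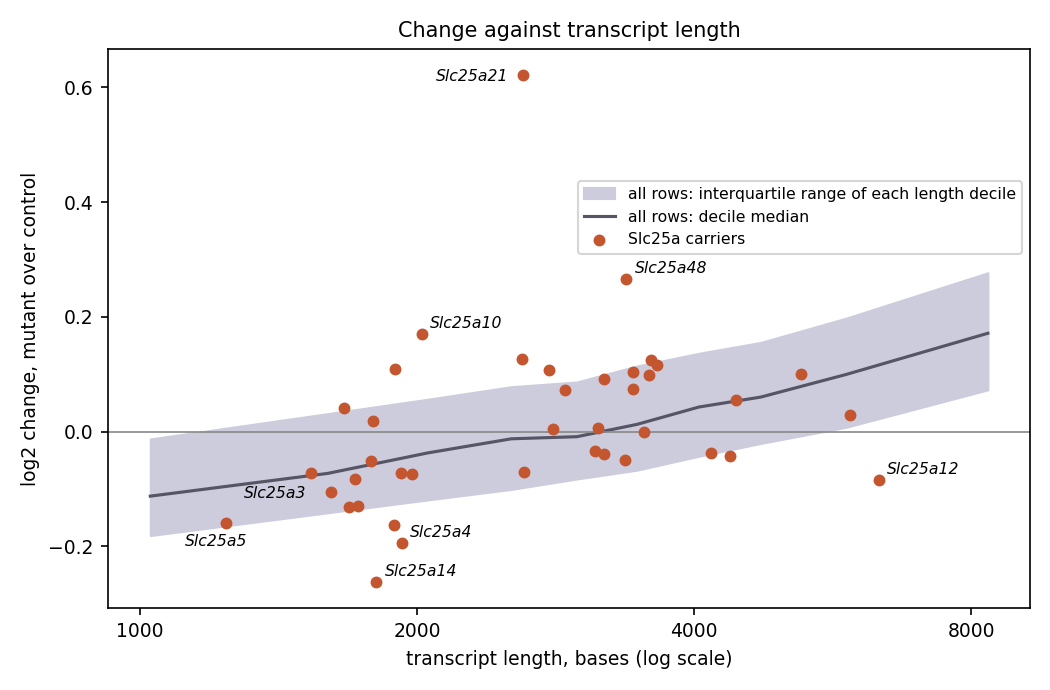
Paired log2 change against transcript length (log axis) for the 40 tested carriers (red points), over the median (line) and interquartile range (band) of all tested rows in each length decile. Slc25a5 (1240 bases, -0.16) lies inside the band near its lower edge, while Slc25a21 (2609 bases, 0.62) and Slc25a10 (0.17) lie above it and Slc25a4 (1925 bases, -0.19), Slc25a14 (-0.26) and Slc25a12 (6351 bases, -0.08) below it.

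Sites for the deleted microRNAs were about as frequent in carriers as in other genes. A site was a 7-base match in the 3' UTR of the longest coding transcript, either GCACTTT (pairing with bases 2 to 8) or CACTTTA (bases 2 to 7, then A) for miR-17/20a, GCACCTT or CACCTTA for miR-18a, TTTGCAC or TTGCACA for miR-19, and GTGCAAT or TGCAATA for miR-92a. Both at once make an 8-base site, and only the transcript strand was read. At least 1 site was held by 19 of 40 members, or 47.5%, and by 46.3% of 13115 rows with a UTR. By family, miR-17/20a sites were held by 9 members (22.5%, against 22% of rows), miR-18a sites by 7 (17.5%, 14.7%), miR-19 sites by 6 (15%, 19.6%) and miR-92a sites by 4 (10%, 14.2%).

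The sites below belong to the carriers called in either paired fit that hold one, and to a few with 8-base matches. Each is printed from GENCODE M21 with 8 bases on either side and the match in capitals.
Slc25a4, miR-17/20a: actcaataCACTTTAtctccctg
Slc25a10, miR-17/20a: acacacaaGCACTTTgtcacaag
Slc25a40, miR-17/20a: agcaaaaaGCACTTTAtcacgttt
Slc25a44, miR-17/20a: cacttcctGCACTTTAttgagaga
Slc25a24, miR-19: aagtctacTTTGCACAgtttatct
Slc25a48, miR-19: gagccgacTTTGCACAgcgcagct
Slc25a32, miR-92a: ctgaccatGTGCAATAgcaaggaa

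Slc25a4, which fell, holds 1 site, whereas Slc25a21, which rose, holds none, and neither does Slc25a5. The carriers with 8-base sites printed here had changes of 0.11 (Slc25a40), 0.10 (Slc25a44), 0.10 (Slc25a24), 0.27 (Slc25a48) and 0.03 (Slc25a32), and none was called by limma, paired. Slc25a32, a folate carrier with 7 sites in a UTR of 4739 bases, and Slc25a36, also with 7 in 4085 bases, stood at changes of 0.03 and 0.10. Members with at least 1 site had a median change of 0.07 (13 of 19 above 0) and those without of -0.04 (8 of 21 above 0). Members with a site also had longer transcripts, with a median of 3145 bases against 1890. With the length and GC trend removed the medians were 0.03 and -0.05. A match describes the letters of the UTR and not pairing in the cell.

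Among genes that work beside the carriers, those called were lower in the mutant. Of 73 tested partner genes limma called 8 lower and 0 higher when paired by litter, with a median change of -0.04, where 3.51% of all rows were called lower and 7.93% higher. At an unadjusted p below 0.05 there were 18 lower and 5 higher partner genes, against 1564 lower and 2458 higher of the 13766 rows. With genotype alone none was called. Receptors and channels of the outer membrane and the small chaperones that bring carriers to the inner membrane gave 4 of 16 lower, with a median of -0.18. Tomm5 went from 68.2 ± 4.69 to 57.9 ± 3.26 CPM (adjusted p = 0.0268), Tomm22 from 97.4 ± 1.09 to 85.8 ± 4.20 CPM (0.0439) and Tomm40, the import pore, from 98.1 ± 14.1 to 86.5 ± 9.92 CPM (0.0471). The remaining gene was Tomm7, named after its values were seen. None of these 4 passed with the length and GC trend removed, and Tomm5 has a transcript of only 738 bases.

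Of 26 enzymes that make or use what the carriers move, 3 fell, where 3.51% of all rows were called lower. Got1, the cytosolic aspartate aminotransferase of the malate-aspartate shuttle, went from 61.8 ± 3.63 to 53.1 ± 3.95 CPM (adjusted p = 0.0339 by limma, paired). Cpt1b, a carnitine palmitoyltransferase, went from 89.5 ± 6.56 to 77.7 ± 5.33 CPM (0.0379), and Bcat2, the mitochondrial branched-chain aminotransferase, from 68.4 ± 5.08 to 57.1 ± 6.45 CPM (0.0424). Among 12 regulators of mitochondrial biogenesis Tfam, which packages and transcribes mitochondrial DNA, fell from 129 ± 7.5 to 111 ± 6.89 CPM (0.0196). These 4 genes also passed with the length and GC trend removed. There 4 partner genes in all were called, each lower, and 2.77% of all rows were called lower.

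Other transporters of the inner membrane gave 0 of 16 calls, with 3 higher and 0 lower at an unadjusted p below 0.05 by limma. At that threshold 2458 of all 13766 rows were higher and 1564 lower, so 3 higher of 16 is near the share of all rows. Sfxn1, a serine transporter, averaged 103 ± 2.42 CPM in controls against 117 ± 7.45 CPM in mutants (SD, n = 3 each; limma adjusted p = 0.0762). Mcu, the calcium uniporter pore, averaged 28.4 ± 1.24 against 32.6 ± 0.339 CPM (0.0794). Family members with other symbols were not called in 3 of 3 cases. Mtch2 averaged 263 ± 10.7 and 241 ± 19.0 CPM (0.0797), Mtch1 at 507 ± 36.2 and 469 ± 45.2 CPM (0.122) and Ucp2, an uncoupling protein, at 164 ± 33.9 and 156 ± 27.5 CPM (0.363).

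Markers of the kidney's own cell types were present, and several differed between the groups. Nephron progenitor markers summed to 444 to 453 CPM in control and 358 to 365 CPM in mutant libraries, with 5 of 9 lower. The list was uneven. Cited1, one of the 5, went from a control mean of 47.5 CPM to a mutant mean of 10.9 CPM. Itga8 (165 and 165 CPM), Gdnf (32.1 and 32.3 CPM) and Crym (50.5 and 46.6 CPM) were among those not called. Podocyte markers were lower for 2 of 6, where 3.51% of all rows were called lower. These counts were again 5 of 9 and 2 of 6 with the length and GC trend removed, where 2.77% of all rows were called lower. Markers called higher were 3 of 7 for the ureteric bud and collecting duct, 2 of 6 for stroma and 2 of 4 for endothelium, where 7.93% of all rows were called higher. With the length and GC trend removed these were 1 of 7, 1 of 6 and 2 of 4, where 2.84% of all rows were called higher. Skeletal muscle, where Slc25a4 is the main translocase, was represented by 2 of 8 markers, which summed to 5.64 to 7.23 CPM in control and 5.37 to 7.61 CPM in mutant libraries. One of them, Mylpf, was lower, and it was not called with the length and GC trend removed. Liver markers, 4 of 6 measured, summed to 130 to 139 CPM in control and 97.2 to 112 CPM in mutant libraries. Of the 4, 1 was lower, Afp, which made up most of these sums (means of 125 and 93.1 CPM). Alb, Ttr and Serpina1a were low and not called. Alb stood at 2.37, 0.795 and 0.728 CPM in control and at 1.47, 0.528 and 11.6 CPM in mutant libraries. The part of these shifts in the values of Slc25a4, Slc25a5 and Slc25a21 was not tested.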

How the data were processed

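The deposited table gives CPM, which the authors scaled from read counts to each library's total. TopHat2 2.0.9, Picard, SAMtools and build NCBIM37 are named in the submitters' processing notes, and the counting program, annotation and strand setting are not given in the sources used here. Multiplied by totals inferred from the values themselves, all values came out as integers to within 0.001 reads. Those totals ran from 43804667 to 54913325 reads, so 1 CPM stands for 43.8 to 54.9 reads. Symbols were matched through GENCODE M21 (13695 rows matched, 270 did not). Rows reaching 1 CPM in 3 or more libraries were compared on log2(CPM + 0.5) with limma 3.58.1 in R 4.3.3, mean-variance trend on, with litter as a block, and p values were adjusted by Benjamini-Hochberg over all 13766 rows. Fold changes on this scale understate those of low genes. Length and GC content are those of the longest coding transcript, and their trend was removed per library with splines of 5 degrees of freedom each.

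The labels name the litter of each library. Deviations from group means correlated at 0.619, 0.446 and 0.312 within litters and at -0.514 to 0.172 between them. The deviations of a group's 3 libraries sum to 0, so positive values within litters push those between litters below 0. Part of the gap is fixed by this arithmetic, and the gap was not tested. The labels do not say whether a library came from 1 embryo or several, so p values speak of libraries and not of embryos. Those of the paired fit set the change against the variation of the mutant and control difference across the 3 litters. In limma this variation is drawn toward that of genes of similar level, so a p value does not measure a gene's own spread alone. For Slc25a4 the log2 differences of the litters were -0.200, -0.187 and -0.196, while the SE of the fit was 0.04. With genotype alone the variation is that of libraries within a group, drawn in the same way. The model was tested on simulated data. The members and lists were chosen with earlier results of these data known. Alternatives changed the block, scaling, pseudocount, filter and correction or left out a litter or library. Named in full are members called in either paired fit, the 5 most abundant others per kilobase, the phosphate, aspartate/glutamate and iron carriers and Slc25a30, and in each partner list up to 3 genes of smallest p. Other members and markers given by name, such as Slc25a14, Slc25a15, Slc25a48 and the carriers whose sites are printed, were added after their values were seen.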

Additional observations from a re-analysis of the deposited data

How the results depend on the processing

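The calls depended on pairing by litter. With no replicate block limma called 0 members higher and 0 lower and, of all genes, 50 higher and 27 lower, with 0 partner genes lower. At an unadjusted p below 0.05 these were 1 and 2 members and 1068 and 483 of all genes. With the length and GC correction and the block, 2 members were higher and 1 lower, 391 of all genes were higher, and 4 partner genes were lower. With the length correction alone these were 0 and 1 members, 339 higher and 319 lower of all genes, and 2 partner genes lower. With the length and GC correction and no replicate block they were 0 and 0 members, 111 and 84 of all genes, and 1 partner gene lower (unadjusted, 2 and 2 members and 975 and 1029 of all genes). Leaving out a litter, with the block, gave 0 to 2 members higher, 0 to 2 lower, 304 to 1506 of all genes higher, 77 to 842 lower, 0 to 3 partner genes higher and 0 to 8 lower. Without litter 1 limma called 0 members either way, with 1 higher and 4 lower unadjusted, against 1720 and 889 of all genes unadjusted. Leaving out 1 library, with no replicate block, gave 0 members and 0 partner genes either way. Of all genes it then called 67 higher and 33 lower without control 1, 41 and 32 without mutant 1, 14 and 13 without control 2, 13 and 21 without mutant 2, 25 and 19 without control 3, and 7 and 15 without mutant 3. Median-ratio and trimmed-mean scaling, pseudocounts of 0.1 and 1, no filter and a filter at 5 CPM kept the counts of members at 1 and 2. The median change of the members stayed between -0.026 and 0.0080.

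Some members that were not called turned sign. Slc25a28 stood at 0.0080 with the length and GC correction, with and without the block, and at 0.045 without mutant 1, and ran from -0.12 to 0.0084 with a litter left out. Slc25a1 ran from -0.021 to 0.14 with a litter left out, and stood at -0.11 without control 1, -0.024 without mutant 2 and -0.012 without mutant 3. Slc25a13 ran from -0.074 to 0.0045 with a litter left out and stood at 0.012 without mutant 3. Slc25a37 ran from -0.094 to 0.0069 with a litter left out and stood at 0.0023 without mutant 3. The cause was not tested. The planned count models were not run, because the table lists too few low values to check the recovery of whole reads on them.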
